A study of Mus musculus with 12 samples.

Results

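The canonical Wnt pathway was read through 10 genes: beta-catenin itself (Ctnnb1), the 4 DNA-binding TCF/LEF factors (Lef1, Tcf7, Tcf7l1 and Tcf7l2), and 5 genes switched on by beta-catenin with these factors (Sp5, Cdx1, Axin2, Notum and Nkd1). The genes were chosen by name, with earlier results of these data known. Each was represented by the probe set annotated to its symbol alone with the highest mean over all arrays. Of the 10 genes, 9 were measured in this way, among 22180 genes in all. Tcf7 was matched by no such probe set and its level was not analysed here. All 9 had a mean log2 value of at least 6, a level that 9761 of the 22180 genes reached.

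The cells were of the K3 line of mouse embryonic stem (ES) cells, profiled on Affymetrix MoGene whole-transcript arrays around a knockout of Esrrb, which encodes ERRb, a nuclear receptor with no known natural ligand. Cells labelled WT/mock had an intact Esrrb gene. Cells labelled KO/mock carried its knockout. Cells labelled KO/ERRb-wt were knockout cells given a lentivirus for wild-type ERRb. All 3 groups had been grown with LIF and were then held for 3 days in serum-free N2B27 medium with CH99021, an inhibitor of the kinase GSK3, PD0325901, an inhibitor of the kinase MEK, and doxycycline, with no LIF listed for this step. Each group held 2 clones (5-2 and 5-5, 8-3 and 8-4, 12-1 and 12-3, in the order above) with 2 arrays a clone, so a group is represented by 4 arrays. Arrays of one clone are labelled biological replicates, but not as separate cultures, so p-values measure the spread between these arrays, which may be technical. The labels do not say how the gene was disrupted, what the mock cells received or what doxycycline controlled.

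In this pathway a Wnt ligand at the cell surface, or an inhibitor of GSK3 inside the cell, stops the destruction complex of Axin, APC, CK1 and GSK3 from marking beta-catenin for breakdown. Beta-catenin then enters the nucleus and binds TCF/LEF factors on their target genes. In mouse ES cells the most studied of these factors is Tcf7l1, a repressor of naive pluripotency genes that include Esrrb, and beta-catenin relieves its repression. Because every group received the GSK3 inhibitor, no array shows the pathway without it.

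The sequences just upstream of 3 of these genes are printed because Sp5 and Lef1 gave the largest differences among the 9 genes against WT/mock and Tcf7l1 is the factor on which the ES cell literature turns. Each covers the 250 bases before a RefSeq transcript start in GRCm38.p6, read 5′ to 3′ on the strand of the gene. Capitals mark CTTTGA, the core of the TCF/LEF site, or its longer form CTTTGAT, which contains it, and on the opposite strand the same core reads TCAAAG. The Sp5 window lies at chr2:70474673-70474922 on the plus strand, the window at the most upstream Lef1 start at chr3:131110047-131110296 on the plus strand, that at an internal Lef1 start at chr3:131156044-131156293 on the plus strand, and the Tcf7l1 window at chr6:72789046-72789295 on the minus strand.
Sp5: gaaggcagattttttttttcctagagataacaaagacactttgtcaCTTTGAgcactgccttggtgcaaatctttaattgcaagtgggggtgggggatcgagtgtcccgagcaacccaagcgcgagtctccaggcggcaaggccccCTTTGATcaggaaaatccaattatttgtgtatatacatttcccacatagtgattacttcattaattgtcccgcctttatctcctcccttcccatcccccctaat
Lef1, first start: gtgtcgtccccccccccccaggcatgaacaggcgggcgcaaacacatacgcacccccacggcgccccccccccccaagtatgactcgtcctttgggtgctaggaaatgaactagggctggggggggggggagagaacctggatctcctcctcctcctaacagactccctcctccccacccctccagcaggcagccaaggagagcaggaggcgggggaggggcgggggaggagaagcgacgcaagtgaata
Lef1, internal start: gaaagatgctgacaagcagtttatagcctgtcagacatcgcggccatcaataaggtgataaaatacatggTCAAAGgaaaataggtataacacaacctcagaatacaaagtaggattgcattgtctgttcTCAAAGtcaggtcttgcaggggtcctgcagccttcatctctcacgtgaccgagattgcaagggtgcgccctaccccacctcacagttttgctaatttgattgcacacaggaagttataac
Tcf7l1: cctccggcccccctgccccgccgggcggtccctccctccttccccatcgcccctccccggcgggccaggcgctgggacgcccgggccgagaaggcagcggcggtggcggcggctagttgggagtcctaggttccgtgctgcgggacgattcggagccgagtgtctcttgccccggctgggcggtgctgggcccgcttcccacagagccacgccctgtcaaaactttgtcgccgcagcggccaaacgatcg

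The Sp5 window held CTTTGA at 204 to 199 bases and again at 104 to 99 bases before the start, and the nearer copy extended to CTTTGAT at 104 to 98 bases. Of 4 Lef1 windows only that at the internal start shown held the core, on the opposite strand at 180 to 175 and 120 to 115 bases, and it was printed for that reason. The windows at the first Lef1 start, at 2 further Lef1 starts not shown and at Tcf7l1 held none. Over 14 windows of the 8 genes searched, which include Tcf7, 2 windows held CTTTGA on either strand. Cdx1 was left out of this search and no upstream sequence was available for Notum, so neither enters these counts. CTTTGA stood in 13.8% of all 32817 windows of this length, and CTTTGAT in 3.21%. The site of the ERR receptors, AAGGTCA, stood in 4.08% of all windows and in 1 of the 14, at 13 to 7 bases before an internal Tcf7 start on the opposite strand. A match describes letters in these windows and shows no binding.

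The targeted gene was checked first. Esrrb read 7.38, 7.38, 7.39 and 7.38 on the WT/mock arrays, 7.48, 8.00, 7.74 and 7.41 on KO/mock, and 6.99, 6.76, 6.50 and 6.68 on KO/ERRb-wt (log2 values, here and below in the order of clones and replicates given above). The arrays labelled KO/mock were thus the highest and those labelled KO/ERRb-wt the lowest, by 0.93 ± 0.13 (difference ± SE) below KO/mock (limma, adjusted p = 0.00436). The difference of KO/mock from WT/mock, 0.28 ± 0.13, was not called (adjusted p = 0.324). This goes against the labels unless the probe set lies outside both the lesion and the part carried by the virus, neither of which is given in the sources used here. Groups are therefore named below only as the arrays so labelled.

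All p-values come from limma with clone as a random block, adjusted over all 41345 probe sets. A gene is called higher or lower at an adjusted p under 0.05. The block acted weakly (estimated correlation 0.0286), so in the main fit arrays of one clone count almost as independent. Against WT/mock, 5.58% of the 22180 genes were called on KO/mock and 20.8% on KO/ERRb-wt, and 4.4% were called between KO/ERRb-wt and KO/mock. Rescaling moved the direction of the calls in that last comparison: 30.4% of 1329 called probe sets were higher with the values as deposited, 42.2% of 1052 after quantile normalization and 21.5% of 1468 after median centring. It turned the sign of none of the members' called differences. ES cell markers averaged 9.84 to 9.92 on the WT/mock arrays, 9.77 to 9.82 on KO/mock and 9.70 to 9.75 on KO/ERRb-wt. Of these 7 markers Klf4 was called lower against WT/mock on both other labels, and Nanog on KO/ERRb-wt. Feeder fibroblast markers averaged 4.49 to 4.76 over all arrays, and none of the 7 reached a mean of 6 over the 12 arrays. The feeder marker Thy1 was called higher on KO/ERRb-wt than on WT/mock, at 6.02 against 5.68 (limma, adjusted p = 0.0318). Primitive endoderm markers averaged 5.38 to 5.46, 5.24 to 5.42 and 5.28 to 5.34 in the order of labels above, and Gata4 was called lower on both labels against WT/mock. Gata4 lies on chromosome 14, whose genes were shifted down against WT/mock as given below for Fzd3. The part of this shift in the Gata4 calls was not tested. Neural markers averaged 5.18 to 5.37, 5.17 to 5.32 and 5.07 to 5.32, with Sox1 called lower on both labels against WT/mock. Trophoblast markers averaged 5.52 to 5.82, 5.91 to 5.94 and 5.84 to 6.10, with Cdx2, also a beta-catenin target, called higher on KO/ERRb-wt. The mesoderm markers, 4 of 5 measured, averaged 5.40 to 5.67, 5.56 to 5.76 and 5.53 to 5.74. For these 4 limma called 0 against WT/mock on either label, with 1 on KO/mock and 0 on KO/ERRb-wt at an unadjusted p under 0.05. Between KO/ERRb-wt and KO/mock the ES cell markers Klf4 and Nanog were called lower on KO/ERRb-wt, by 0.30 ± 0.07 and 0.25 ± 0.05 (limma, adjusted p = 0.0336 and 0.0196). The primitive endoderm marker Sox7 was lower there by 0.63 ± 0.14 (adjusted p = 0.0301). No other marker was called in that comparison, where 3.17% of all genes were called lower. The part of these markers in the results was not tested.

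Among the 9 measured genes, Lef1 and Sp5 were higher on KO/mock than on WT/mock. Notum and Tcf7l1 were higher on KO/ERRb-wt than on KO/mock. Lef1, Sp5, Tcf7l1, Notum, Cdx1 and Axin2 were all higher on KO/ERRb-wt than on WT/mock. No member was called lower in any comparison, and none was lower at an unadjusted p under 0.05. The 3 comparisons share arrays, so they are not independent of each other. Because the genes were chosen with earlier results known, the counts below only describe them beside the shares of all genes.

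**Figure D1:**
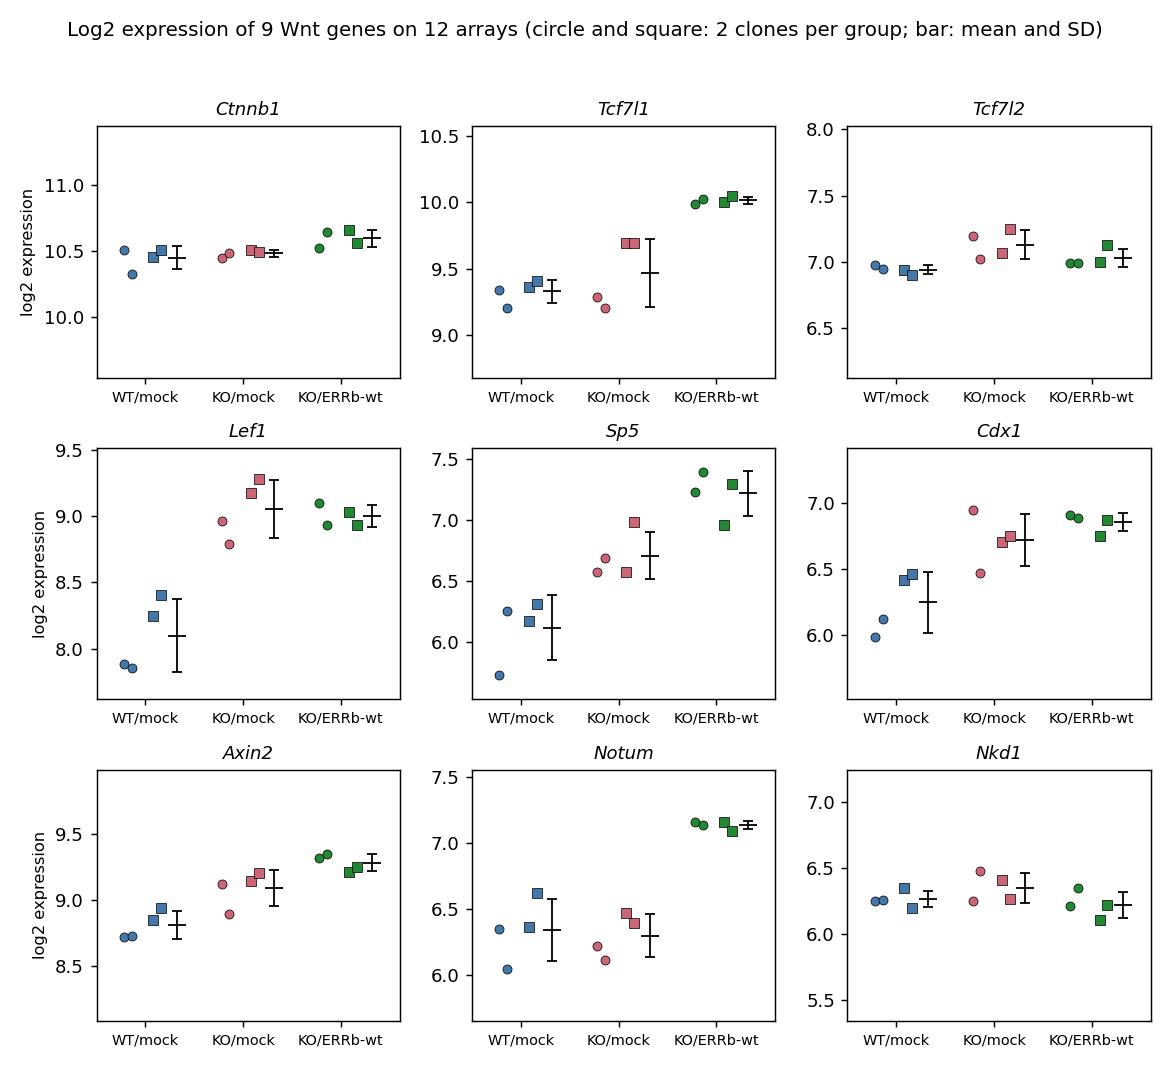
Log2 expression of the 9 measured genes on each of the 12 arrays, by label, with 1 point for each array (circle and square for the 2 clones) and bars for the group mean and SD. Lef1 is higher on KO/mock and KO/ERRb-wt than on WT/mock, and Notum and Tcf7l1 are highest on KO/ERRb-wt.

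The first count, KO/mock against WT/mock, was 2 of 9 called higher, where 4.19% of the 9761 genes with a mean of at least 6 were called higher. At an unadjusted p under 0.05 limma gave 5 higher and 0 lower, where 18.4% and 15.7% of the 9761 passed. On 4 of the 9 genes all KO/mock arrays lay above all WT/mock arrays, against 16.1% of the 9761 genes. The median difference of the 9 was 0.19 on the log2 scale, against 0.02 over the 9761.

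KO/ERRb-wt against KO/mock also gave 2 of 9 higher and 0 lower, where 1.77% of the 9761 genes were called higher, and 4 higher and 0 lower at an unadjusted p under 0.05, where 8.94% and 23% of the 9761 passed. Non-overlap upwards was seen for 4 of 9 genes, against 8.79% of the 9761. The median difference was 0.14, against -0.04 over the 9761.

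KO/ERRb-wt against WT/mock gave 6 of 9 higher and 0 lower, where 14.9% of the 9761 genes were called higher, and 7 higher and 0 lower at an unadjusted p under 0.05, where 23.4% and 30.7% of the 9761 passed. On 8 of 9 genes all KO/ERRb-wt arrays lay above all WT/mock arrays, against 21.3% of the 9761. The median difference was 0.61, against -0.02. With the 2 arrays of each clone averaged before the fit, limma called 0 members in the comparisons of KO/mock with either label (5 against WT/mock and 3 against KO/ERRb-wt at an unadjusted p under 0.05) and 3 on KO/ERRb-wt against WT/mock, namely Lef1, Sp5 and Notum.

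**Figure D2:**
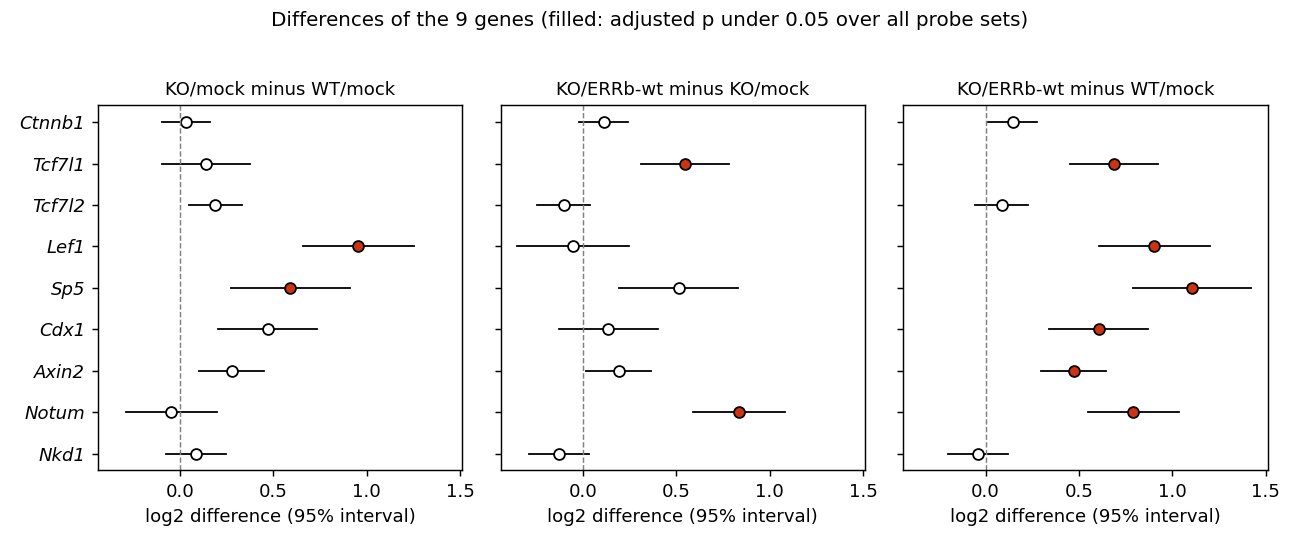
Log2 differences of the 9 genes in the 3 comparisons, with points for the limma estimate, filled where the gene was called, and lines for its 95% interval. The intervals of Lef1 lie above 0 in both comparisons with WT/mock and span 0 between KO/ERRb-wt and KO/mock, whereas those of Notum lie above 0 in both comparisons of KO/ERRb-wt.

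The beta-catenin transcript was called in no comparison. Ctnnb1 read 10.51, 10.33, 10.46 and 10.51 on WT/mock, 10.44, 10.49, 10.51 and 10.50 on KO/mock, and 10.52, 10.65, 10.66 and 10.56 on KO/ERRb-wt. The KO/ERRb-wt arrays lay above all others, by a narrow margin. The difference from WT/mock was 0.14 ± 0.06 (95% interval 0.01 to 0.28, adjusted p = 0.135, limma) and that of KO/mock from WT/mock 0.03 ± 0.06 (-0.10 to 0.16, adjusted p = 0.875). At an unadjusted p under 0.05 only KO/ERRb-wt against WT/mock passed, and that difference was called with a trended robust prior (adjusted p = 0.0494). Stability of the protein, which GSK3 controls, was not measured.

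Of the TCF/LEF factors, Lef1, which acts mainly as an activator with beta-catenin, showed the largest difference on KO/mock. It read 7.88, 7.85, 8.25 and 8.41 on WT/mock, 8.96, 8.79, 9.18 and 9.28 on KO/mock, and 9.10, 8.93, 9.03 and 8.94 on KO/ERRb-wt. All 8 arrays labelled KO/mock or KO/ERRb-wt lay above the 4 WT/mock arrays, and these 2 labels overlapped. KO/mock exceeded WT/mock 1.94-fold and KO/ERRb-wt exceeded WT/mock by 0.90 ± 0.14, or 1.87-fold (limma, adjusted p = 0.00234 and 0.000941). Between KO/ERRb-wt and KO/mock the difference was -0.05 ± 0.14 (95% interval -0.35 to 0.25, adjusted p = 0.881). The call on KO/mock was kept with each single array left out (adjusted p at most 0.0100) and lost only when the arrays of each clone were averaged (adjusted p = 0.139).

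Tcf7l1, the repressor, showed another order. It read 9.34, 9.20, 9.36 and 9.41 on WT/mock, 9.28, 9.20, 9.69 and 9.69 on KO/mock, and 9.99, 10.02, 10.00 and 10.05 on KO/ERRb-wt. The KO/ERRb-wt arrays were close together and above all others, and on KO/mock the arrays of clone 8-4 stood above those of clone 8-3, which lay among WT/mock. KO/ERRb-wt was higher than KO/mock by 0.55 ± 0.11, or 1.46-fold (limma, adjusted p = 0.0212), and higher than WT/mock by 0.69 ± 0.11, or 1.61-fold (adjusted p = 0.00121). KO/mock differed from WT/mock by 0.14 ± 0.11 (adjusted p = 0.619).

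The Tcf7l1 call between KO/ERRb-wt and KO/mock was lost without either array of clone 8-3 or without replicate 2 of clone 12-3 (adjusted p at most 0.0618). Without clone 8-3 the Tcf7l1 step from WT/mock to KO/mock became 0.36 (adjusted p = 0.0266), and without clone 8-4 it was -0.08 (adjusted p = 0.722).

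Tcf7l2, a factor that can activate or repress and is best known in the intestine, read 6.98, 6.94, 6.94 and 6.90 on WT/mock, 7.19, 7.02, 7.06 and 7.25 on KO/mock, and 6.99, 6.99, 7.00 and 7.13 on KO/ERRb-wt. All KO/mock arrays lay above all WT/mock arrays, but the difference of 0.19 ± 0.06 was not called (limma, adjusted p = 0.152). KO/ERRb-wt differed from WT/mock by 0.09 ± 0.06 (95% interval -0.06 to 0.23, adjusted p = 0.432).

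Among the targets, Sp5, a zinc-finger factor that itself acts back on Wnt target genes, had the largest difference on KO/ERRb-wt. It read 5.72, 6.25, 6.17 and 6.31 on WT/mock, 6.57, 6.69, 6.58 and 6.98 on KO/mock, and 7.23, 7.39, 6.96 and 7.30 on KO/ERRb-wt. WT/mock lay below all other arrays, and KO/mock and KO/ERRb-wt met at a single pair of arrays, 6.98 against 6.96. KO/ERRb-wt exceeded WT/mock by 1.10 ± 0.15, or 2.15-fold (limma, adjusted p = 0.000399), a call kept in every alternative tried.

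The Sp5 step from WT/mock to KO/mock, 1.51-fold, stood at the threshold (adjusted p = 0.0445). It was lost without 9 of the 12 arrays taken singly (adjusted p at most 0.124), that is, without any array but replicate 2 of clone 5-5, replicate 2 of clone 12-1 or replicate 1 of clone 12-3. The step from KO/mock to KO/ERRb-wt, 0.51 ± 0.15, was not called (limma, adjusted p = 0.0805) and was called without clone 5-2 (adjusted p = 0.0469).

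Cdx1, a homeobox gene of the posterior embryo, read 5.98, 6.12, 6.42 and 6.46 on WT/mock, 6.94, 6.47, 6.70 and 6.75 on KO/mock, and 6.91, 6.89, 6.75 and 6.87 on KO/ERRb-wt. WT/mock lay below all other arrays, narrowly so at the nearest pair. KO/ERRb-wt exceeded WT/mock by 0.61 ± 0.12, or 1.52-fold (limma, adjusted p = 0.00521). Without clone 5-2 this became 0.41 and lost its call (adjusted p = 0.0574). The difference of KO/mock from WT/mock, 0.47 ± 0.12, fell just short (adjusted p = 0.0547) and was called without replicate 2 of clone 5-5 or replicate 2 of clone 8-3.

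The feedback inhibitors come next. Axin2, a scaffold of the destruction complex and the most used reporter of the pathway, read 8.72, 8.73, 8.85 and 8.94 on WT/mock, 9.12, 8.89, 9.14 and 9.21 on KO/mock, and 9.32, 9.35, 9.21 and 9.25 on KO/ERRb-wt. KO/ERRb-wt lay above all arrays of both other labels, narrowly so for KO/mock. The difference was called only against WT/mock, at 0.47 ± 0.08 or 1.39-fold (limma, adjusted p = 0.0019). The other differences were 0.28 ± 0.08 for KO/mock against WT/mock (adjusted p = 0.0835, called without replicate 2 of clone 8-3) and 0.19 ± 0.08 for KO/ERRb-wt against KO/mock (adjusted p = 0.217). A dimmer Axin2 probe set gave 0.15, 0.19 and 0.34 in the 3 comparisons and was likewise called only in the last (limma, adjusted p = 0.0165).

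Notum, a secreted enzyme that removes the lipid from Wnt ligands, was called on KO/ERRb-wt against both other labels. It read 6.35, 6.05, 6.36 and 6.62 on WT/mock, 6.22, 6.12, 6.47 and 6.39 on KO/mock, and 7.16, 7.13, 7.16 and 7.09 on KO/ERRb-wt. WT/mock and KO/mock overlapped, and every KO/ERRb-wt array lay above them. The gene was higher than on KO/mock by 0.84 ± 0.11, or 1.79-fold (limma, adjusted p = 0.00344), and than on WT/mock by 0.79 ± 0.11, or 1.73-fold (adjusted p = 0.00063). Between KO/mock and WT/mock the difference was -0.05 ± 0.11 (95% interval -0.29 to 0.20, adjusted p = 0.912). Without clone 8-3 the difference from KO/mock was 0.71 and no longer called (adjusted p = 0.0562).

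The dimmer Notum probe set, with a WT/mock mean of 4.53, did not repeat this. It differed by 0.20 between KO/ERRb-wt and KO/mock (adjusted p = 0.554) and by 0.30 between KO/ERRb-wt and WT/mock (limma, adjusted p = 0.259), with overlapping arrays. The Notum result therefore rests on 1 of its 2 probe sets.

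Nkd1, an inhibitor that binds Dishevelled, read 6.25, 6.26, 6.35 and 6.20 on WT/mock, 6.25, 6.48, 6.41 and 6.26 on KO/mock, and 6.21, 6.35, 6.11 and 6.22 on KO/ERRb-wt. All labels overlapped. Its differences were 0.09, -0.13 and -0.04 (adjusted p = 0.668, 0.381 and 0.768, limma), and the 95% interval of the second was -0.29 to 0.03.

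Ordered by level within each gene, Sp5, Tcf7l1, Axin2, Cdx1 and Ctnnb1 had the group order WT/mock, KO/mock, KO/ERRb-wt. The upper step was not called for Sp5, the lower step not for Tcf7l1, and neither step for Axin2, Cdx1 and Ctnnb1. Lef1 had WT/mock below the other two labels, which did not differ beyond their spread. Notum had KO/ERRb-wt above the other two labels, which did not differ beyond theirs. Whether the pattern of one gene differs from that of another was not tested.

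Clones of one label differed as well. Within WT/mock 8 of 9 genes were higher in clone 5-5 than in clone 5-2, and within KO/mock 8 of 9 were higher in clone 8-4 than in clone 8-3, while within KO/ERRb-wt 3 of 9 were higher in clone 12-3 than in clone 12-1. The largest gaps were 0.46 for Lef1 within WT/mock and 0.45 for Tcf7l1 within KO/mock. With 2 arrays a clone limma called 0 of the 9 in each of these comparisons (lowest adjusted p = 0.367, 0.281 and 0.869), where 0%, 0.00902% and 0% of all genes were called. At an unadjusted p under 0.05 the counts were 3, 2 and 0. The shares of all genes at this cut, or higher in the same clone, were not counted. These counts and directions therefore show nothing particular to the 9 genes. For Lef1 the step from WT/mock to KO/mock, 0.96, exceeded the gap between the WT/mock clones. For Tcf7l1 the step from KO/mock to KO/ERRb-wt, 0.55, was close to the gap of 0.45 between the KO/mock clones.

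Beyond the 9 genes, 105 genes of the pathway were set out in 9 lists by role, and 103 of them were measured (all but Gsk3a and T), 53 with a mean of at least 6. KO/mock against WT/mock gave 0 higher and 4 lower, where 2.11% and 3.47% of the 22180 genes were called higher and lower. At an unadjusted p under 0.05 limma gave 19 higher and 10 lower, where 10.3% and 9.99% of all genes passed. KO/ERRb-wt against KO/mock gave 5 higher and 7 lower, where 1.24% and 3.17% of all genes were called. KO/ERRb-wt against WT/mock gave 20 higher and 14 lower, where 8.82% and 12% of all genes were called. Of these calls, all 4, 3 of 12 and 22 of 34 were kept with each single array left out. Lost without at least 1 array were Wnt11, Porcn, Ror2, Dkk1, Tle5, Jup, Evx1, Nanog and Tfcp2l1 between KO/ERRb-wt and KO/mock, and Wnt11, Fzd6, Znrf3, Dkk2, Sfrp2, Btrc, Tnks2, Bcl9l, Cdx2, Myc, Cd44 and Klf2 between KO/ERRb-wt and WT/mock.

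**Figure D3:**
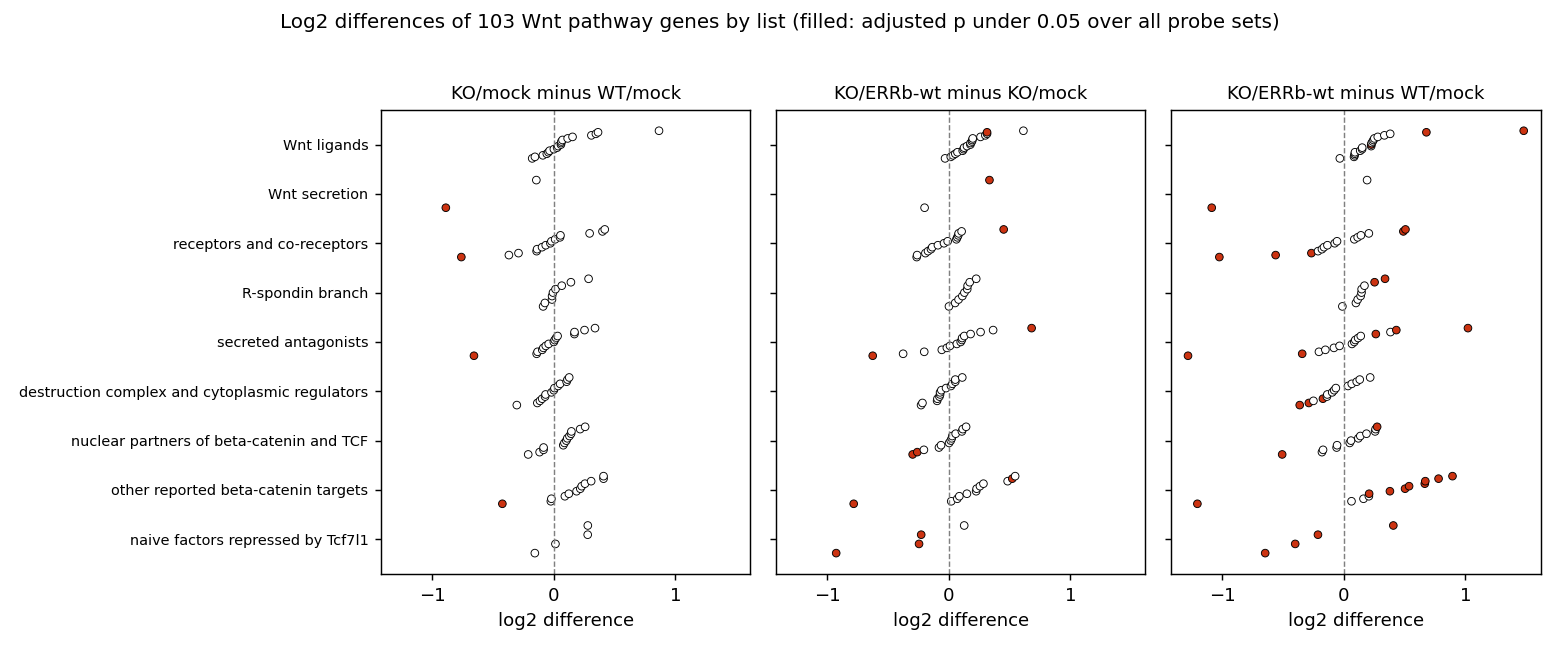
Log2 difference of each of 103 pathway genes, by list on the vertical axis and by comparison in 3 panels, with filled points for genes called at an adjusted p under 0.05. The other reported beta-catenin targets have the most higher calls, 8 of 12 measured genes, on KO/ERRb-wt against WT/mock. Of all genes 8.82% were called higher there.

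Wnt ligands were mostly dim, with 2 of 19 at a mean of at least 6. Wnt8a, an early mesoderm ligand, read 5.53, 6.27, 6.19 and 6.36 on WT/mock, 6.75, 6.50, 7.09 and 7.48 on KO/mock, and 7.66, 7.82, 7.18 and 7.61 on KO/ERRb-wt. WT/mock lay below all other arrays, and the other two labels overlapped. KO/ERRb-wt exceeded WT/mock by 1.48 ± 0.23, or 2.79-fold (limma, adjusted p = 0.00122). The KO/mock difference of 0.87 ± 0.23 was not called (adjusted p = 0.0659). Wnt5b rose by 0.68 ± 0.11 (adjusted p = 0.00135) on KO/ERRb-wt against WT/mock. Wnt11 rose there by 0.22 ± 0.06 and against KO/mock by 0.31 ± 0.06 (adjusted p = 0.0309 and 0.0224), at a low level of signal.

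The 2 genes of Wnt secretion went separate ways. Wls, the carrier that takes Wnt ligands to the cell surface, read 7.26, 7.48, 7.23 and 7.12 on WT/mock, 6.27, 6.75, 6.20 and 6.32 on KO/mock, and 6.29, 6.15, 5.96 and 6.34 on KO/ERRb-wt. All WT/mock arrays were higher than all others. Wls fell by 0.89 ± 0.13 on KO/mock and by 1.09 ± 0.13 on KO/ERRb-wt (limma, adjusted p = 0.00271 and 0.000223). Porcn, the enzyme that adds the lipid to Wnt ligands, was higher on KO/ERRb-wt than on KO/mock by 0.33 ± 0.08 (adjusted p = 0.0392, lost without 7 of the arrays taken singly). Its neighbours were taken as the 10 nearest protein-coding genes on the X chromosome with a mean of at least 6, 5 on each side. Of these 10, 3 were called higher in the same comparison, up to 1.15 for Was, and 1 lower, Rpgr at -0.33. The nearest of the 10 at its 2 sides, Ebp and Ftsj1, gave 0.62 and 0.07, and the part of these neighbours in the Porcn result was not tested.

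Of the 15 receptors and co-receptors, Fzd3 read 6.34, 6.57, 6.65 and 6.50 on WT/mock, 5.52, 5.77, 5.82 and 5.90 on KO/mock, and 5.37, 5.51, 5.55 and 5.52 on KO/ERRb-wt. WT/mock was again above all other arrays. Fzd3 fell by 0.76 ± 0.09 and 1.03 ± 0.09 against WT/mock (limma, adjusted p = 0.000868 and 3.44e-05). It lies on chromosome 14, where 342 genes with a mean of at least 6 had a median difference of -0.41 and -0.48 in these comparisons, against 0.03 and -0.01 elsewhere, and the part of this shift in the Fzd3 result was not tested.

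On KO/ERRb-wt against WT/mock Fzd4 fell by 0.56 ± 0.10 and Fzd6 by 0.27 ± 0.08 (limma, adjusted p = 0.00193 and 0.0349). Fzd2 rose by 0.49 ± 0.11 there (adjusted p = 0.0126). Ror2, a receptor of the branch that does not use beta-catenin, was higher on KO/ERRb-wt than on WT/mock by 0.51 ± 0.09 and than on KO/mock by 0.45 ± 0.09 (adjusted p = 0.00349 and 0.0274).

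In the R-spondin branch, which controls how long Frizzled receptors stay at the surface, no gene was called on KO/mock against WT/mock, where Rspo3 came nearest at 0.29 ± 0.07 and Znrf3 gave 0.14 ± 0.07 (limma, adjusted p = 0.0562 and 0.337). None was called between KO/ERRb-wt and KO/mock, where Rnf43 gave 0.22 ± 0.08 and Lgr5 0.17 ± 0.07 (adjusted p = 0.161 and 0.226). At an unadjusted p under 0.05 limma gave 1 and 3 of 9 genes in these comparisons, all higher, where 10.3% and 9.7% of all genes passed upwards. On KO/ERRb-wt against WT/mock the ligand Rspo3 rose by 0.34 ± 0.07 and Znrf3, a ubiquitin ligase that removes the receptors, by 0.25 ± 0.07 (adjusted p = 0.00891 and 0.0254).

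The secreted antagonists moved in both directions. Sfrp1, which binds Wnt ligands, was bright and read 10.92, 10.72, 10.93 and 10.69 on WT/mock, 10.22, 10.27, 10.04 and 10.11 on KO/mock, and 9.50, 9.54, 9.61 and 9.49 on KO/ERRb-wt. The 3 labels did not overlap at any array. It fell by 0.66 ± 0.08 from WT/mock to KO/mock and by a further 0.63 ± 0.08 to KO/ERRb-wt (limma, adjusted p = 0.00072 and 0.00209). Over the whole span it was 2.43-fold lower (adjusted p = 3.67e-06).

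Dkk1, which blocks the Lrp co-receptors and is itself a beta-catenin target, went the other way. It read 4.50, 4.88, 4.45 and 4.84 on WT/mock, 5.04, 4.81, 4.88 and 5.29 on KO/mock, and 5.75, 5.78, 5.50 and 5.72 on KO/ERRb-wt. KO/ERRb-wt lay above all other arrays, at a low level of signal. Dkk1 was higher there by 0.68 ± 0.13 than on KO/mock and by 1.02 ± 0.13 than on WT/mock (limma, adjusted p = 0.019 and 0.000327). The former was lost without replicate 2 of clone 8-3 or replicate 2 of clone 12-3 (adjusted p at most 0.0544). Against WT/mock Dkk2 rose by 0.43 ± 0.13 and Sfrp2 by 0.26 ± 0.08, and Kremen1, a co-receptor of the Dkk proteins, fell by 0.34 ± 0.07 (adjusted p = 0.0488, 0.0439 and 0.00655).

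**Figure D4:**
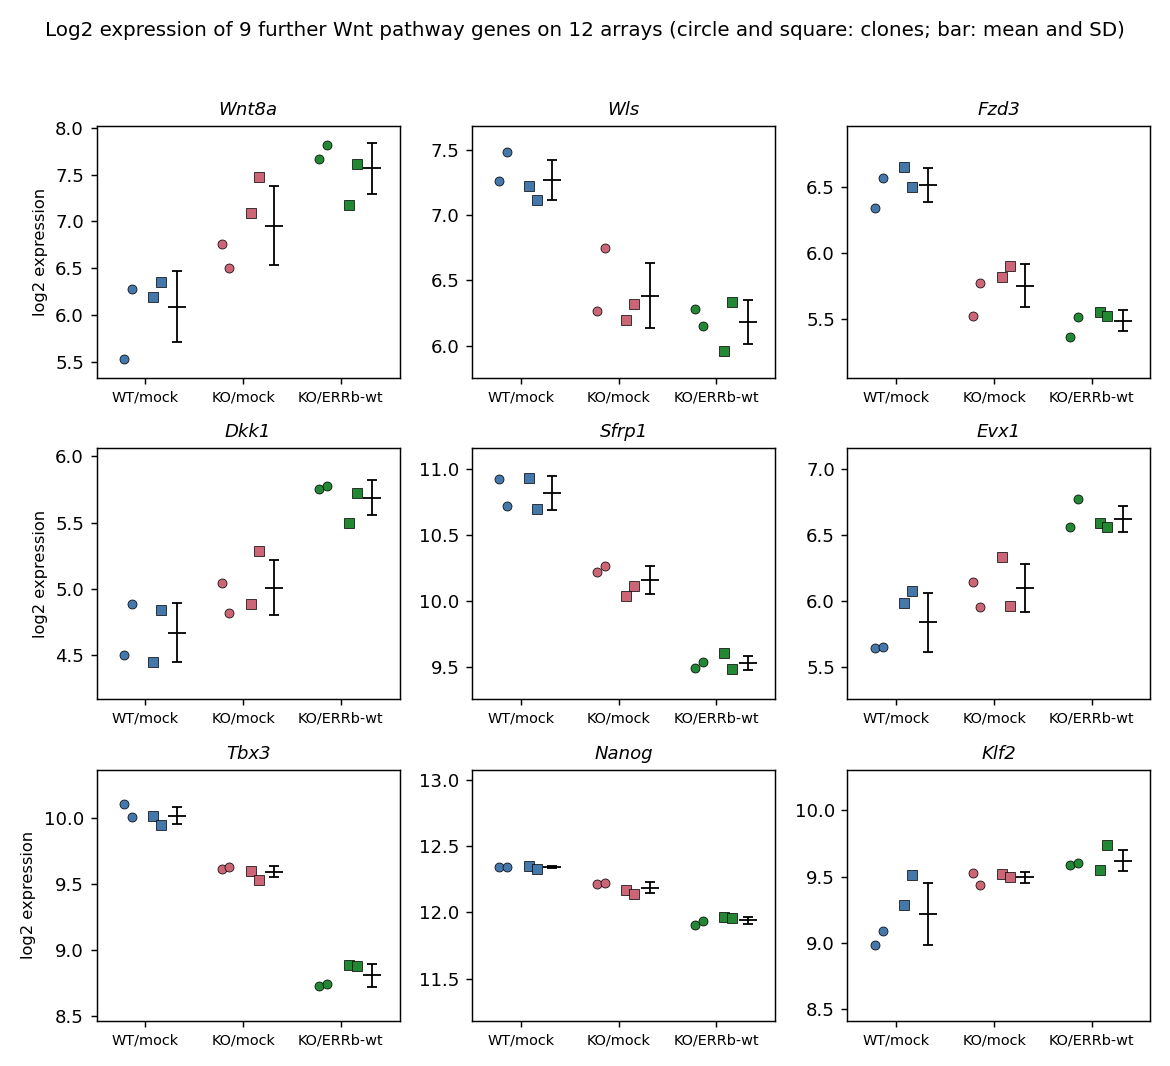
Log2 expression on each of the 12 arrays for 9 further pathway genes, by label, with 1 point for each array (circle and square for the clones) and bars for the group mean and SD. Sfrp1 falls in steps with no overlap between the 3 labels, and Dkk1 is highest on KO/ERRb-wt.

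In the destruction complex no gene was called on KO/mock against WT/mock, where Nkd2 gave -0.30 ± 0.08 and Csnk1a1 -0.14 ± 0.06 (limma, adjusted p = 0.0686 and 0.26). None was called between KO/ERRb-wt and KO/mock, where Csnk1a1 came nearest at -0.23 ± 0.06 and Btrc gave -0.22 ± 0.08 (adjusted p = 0.0533 and 0.157). At an unadjusted p under 0.05 limma gave 2 genes in each comparison, all lower. Of the 9761 genes with a mean of at least 6, 15.7% and 23% passed downwards. On KO/ERRb-wt against WT/mock 3 of 14 fell, where 2241 of the 9761 genes with a mean of at least 6 were called lower. Of the 14 genes, 13 reached that mean. Csnk1a1, the kinase CK1 alpha, fell by 0.36 ± 0.06 (limma, adjusted p = 0.00118). Btrc, the ubiquitin ligase subunit that recognises marked beta-catenin, fell by 0.29 ± 0.08 (adjusted p = 0.0253). Tnks2, a tankyrase that destabilises Axin, fell by 0.17 ± 0.05 (adjusted p = 0.0458). The calls of Btrc and Tnks2 were each lost without at least 1 array.

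Of 13 nuclear partners none was called on KO/mock against WT/mock. Tle5, a short member of the Groucho corepressor family, gave -0.21 ± 0.06 and Bcl9l, a coactivator, 0.22 ± 0.08 (limma, adjusted p = 0.0994 and 0.162). At an unadjusted p under 0.05 there were 3 higher and 1 lower. Of the genes with a mean of at least 6, which include 11 of the 13, 18.4% and 15.7% passed. Tle5 fell by 0.30 ± 0.06 from KO/mock to KO/ERRb-wt and by 0.51 ± 0.06 from WT/mock (adjusted p = 0.029 and 0.000287). Jup, the plakoglobin relative of beta-catenin, was lower on KO/ERRb-wt than on KO/mock by 0.26 ± 0.06 (adjusted p = 0.0402, lost without 9 of the arrays taken singly). Bcl9l rose by 0.27 ± 0.08 on KO/ERRb-wt against WT/mock (adjusted p = 0.03).

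The other reported beta-catenin targets, 12 measured, were the list closest to the 9 genes. On KO/ERRb-wt against WT/mock 8 were higher and 1 lower, where 8.82% and 12% of all genes were called. The median difference of the list was 0.44 against 0.03 over all genes. The 8 were Cdx4 at 0.89 ± 0.15, Evx1 at 0.78 ± 0.12, Sp8 at 0.67 ± 0.11, Myc at 0.67 ± 0.20, Cdx2 at 0.54 ± 0.14, Tnfrsf19 at 0.50 ± 0.10, Ccnd1 at 0.38 ± 0.07 and Cd44 at 0.21 ± 0.06 (limma, adjusted p from 0.000962 to 0.04). Calls of Myc, Cdx2 and Cd44 were each lost without at least 1 single array, and those of Ccnd1 and Tnfrsf19 without clone 5-2. With the arrays of each clone averaged, only Cdx4, Evx1 and Sp8 of the 8 were called. Cdx4, Sp8 and Cd44 were dim, with means of 5.69, 4.80 and 3.98 over the 12 arrays. Cdx4, the relative of Cdx1 in the posterior embryo, read 5.29, 4.94, 5.52 and 5.27 on WT/mock, 5.37, 5.54, 5.69 and 6.05 on KO/mock, and 6.25, 6.23, 6.17 and 5.93 on KO/ERRb-wt. Its KO/mock arrays overlapped both other labels. On KO/mock against WT/mock none of the 12 was called higher. At an unadjusted p under 0.05 limma gave 6 higher and 1 lower, where 10.3% and 9.99% of all genes passed.

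The exception was Tbx3, also a factor of the naive state downstream of LIF. It read 10.10, 10.00, 10.01 and 9.95 on WT/mock, 9.61, 9.63, 9.60 and 9.53 on KO/mock, and 8.73, 8.74, 8.89 and 8.88 on KO/ERRb-wt. The labels did not overlap. Tbx3 fell by 0.42 ± 0.06 and by a further 0.78 ± 0.06 (limma, adjusted p = 0.00228 and 0.000137).

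Genes that Tcf7l1 is known to repress were read beside Tcf7l1. From KO/mock to KO/ERRb-wt Nanog fell by 0.25 ± 0.05 and Tfcp2l1 by 0.23 ± 0.05 (limma, adjusted p = 0.0196 and 0.0417), and Klf2 gave 0.13 ± 0.10 (adjusted p = 0.544). Esrrb also fell, as given above, but it is the targeted gene, so its value cannot show how Tcf7l1 acts. With Esrrb, 3 of the 4 genes were called lower, where 3.17% of all genes were called lower. All 4 had a mean of at least 6, and 637 of the 9761 such genes were called lower. Without Esrrb only Nanog and Tfcp2l1 remain. The part of Tcf7l1 in these differences was not tested. The Nanog call was lost without either array of clone 8-3, and that of Tfcp2l1 without 11 of the arrays taken singly. Against WT/mock Nanog fell by 0.40 ± 0.05, Tfcp2l1 by 0.21 ± 0.05, and Klf2 rose by 0.41 ± 0.10 (adjusted p = 0.000195, 0.017 and 0.0173). On KO/mock against WT/mock 0 of the 4 were called, with Nanog at -0.16 ± 0.05 and Klf2 at 0.28 ± 0.10 (limma, adjusted p = 0.102 and 0.176). At an unadjusted p under 0.05 there was 1 in each direction. Of the genes with a mean of at least 6, 18.4% passed upwards and 15.7% downwards.

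As a description, the genes whose levels ran closest to each called member over the 12 arrays were picked from 9123 named genes with a mean of at least 6. For Lef1 these were Lpar4 (Pearson r = 0.986), Nexmif (0.983) and Bcl6b (0.980). For Sp5 they were Wnt8a (0.970), Rasgrp1 (0.966) and Ubxn8 (0.964). Tcf7l1 ran closest to Ak1 (0.976), Nsun2 (0.964) and Slc39a14 (0.964), and Notum to Phf23 (0.980), Impdh1 (0.971) and Tsx (0.968). The nearest to Axin2 were Nr5a2 (0.984), Ngfr (0.975) and Tgfbr3 (0.974), and to Cdx1 Tssc4 (0.962), Pgp (0.959) and Eloa (0.955). All points share the 3 labels and 6 clones, so a gene that differs between labels in the same way gives a high value.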

How the data were processed

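Total RNA from 12 samples was hybridised to 1 array each. The authors deposited log2 expression values. The submitters' processing notes name RMA and Affymetrix Expression Console, and no version of either was found there. RMA brings the probes of all arrays to one distribution before they are combined into probe sets, and so can hide a shift common to most genes. The deposited probe set values still differed between arrays, with array medians from 5.00 to 5.07. Without scanner files, which were not used here, dim values have no detection call. The values ran from 1.59 to 13.6.

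Probe sets were named from the platform annotation, and 23521 had exactly 1 symbol. Chromosomes and upstream sequences came from RefSeq, GRCm38.p6, matched by symbol. No source used here names the build of the array annotation, and gene coordinates are therefore not printed.

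All 12 arrays entered 1 linear model of the 3 groups in limma 3.58.1 (R 4.3.3, statmod 1.5.0) with clone as random block. The estimated clone correlation was 0.0286 over all probe sets. It was 0.172 with dim probe sets (mean under 6) left out, a set that holds every measured member. At 0.0286 the block acts weakly, and arrays of one clone count almost as independent. Tests were two-sided, with Benjamini-Hochberg adjustment over 41345 probe sets and a threshold of 0.05. Clones were compared with the 6 clones as groups. The pipeline was tested on simulated data. The number of arrays, 4 a group, limits the precision. Errors of differences are SE, with 95% intervals.

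The members and lists were chosen with earlier results of these data known. Named genes were Esrrb, all 10 members, every called gene of a pathway list or up to 2 with the smallest adjusted p where none was called, and the 3 genes nearest in pattern to each called member. Beyond that rule the neighbours of Porcn and the called cell type markers were named after their values were seen. Alternatives were no clone block, clone averages, a replicate block, only the groups compared, quantile normalization, median centring, dim probe sets (mean under 6) left out, array weights, a trended robust prior, the mean of a gene's probe sets, and leaving out each array or clone.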

Additional observations from a re-analysis of the deposited data

Results flagged for a closer look

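Within KO/ERRb-wt, replicate 2 of clone 12-3 read 7.13 for Tcf7l2, above the other 3 arrays at 6.99 to 7.00. The gap to the nearest array was 0.903 of the group's whole range. Of 27 groups of 4 arrays checked in this way, 1 stood out, where chance alone marks about 1 in 20. Without this array the Tcf7l2 difference between KO/ERRb-wt and WT/mock was 0.05 on the log2 scale and was not called (limma, adjusted p = 0.689).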

How the results depend on the processing

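With each array left out in turn, 1 to 3 members were called between KO/mock and WT/mock, 1 to 2 between KO/ERRb-wt and KO/mock and 6 between KO/ERRb-wt and WT/mock; the probe sets called ran from 888 to 1841, 544 to 1399 and 4822 to 6526, and the pathway genes from 4 to 10, 3 to 13 and 25 to 33. Clone averages, which leave 2 values a label, gave 0, 0 and 3 members (5, 3 and 6 at an unadjusted p under 0.05 in limma), 10, 0 and 2251 probe sets (5136, 6124 and 10012 unadjusted) and 0, 0 and 16 pathway genes (19, 21 and 42 unadjusted). For KO/mock against WT/mock the member count was 1 with only the 2 groups compared, after median centring and without clone 5-2, 8-4 or 12-1, and 4 with dim probe sets left out or a trended robust prior. Leaving out dim probe sets gave 11 pathway genes there. Probe sets numbered 531 without clone 5-2 and 560 without clone 8-4. Between KO/ERRb-wt and KO/mock the member count was 1 with only the 2 groups compared, where 777 probe sets were called. It was 0 without clone 8-3, where 145 were called, and 1 without clone 12-1 or 12-3, where 761 and 333 were called. Against WT/mock, KO/ERRb-wt gave 3245 probe sets without clone 5-2 and 3931 without clone 12-3. Between the KO/mock clones 1 member, Tcf7l1, was called with dim probe sets left out or a trended robust prior.

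No called difference changed sign in the alternatives tried. Those not called that did were, for KO/mock against WT/mock, Ctnnb1 without replicate 2 of clone 5-2 (-0.0083, and from there up to 0.053 without another single array) or without clone 5-2 (-0.000975), Notum without replicate 2 of clone 5-5 (0.046; from -0.14 without another single array) or replicate 2 of clone 8-3 (0.016), without clone 5-5 (0.10) or clone 8-3 (0.086) and as the mean of its probe sets (0.028), and Tcf7l1 without clone 8-4 (-0.083). For KO/ERRb-wt they were Lef1 against KO/mock without replicate 2 of clone 8-4 (0.022; from -0.14 without another single array) or without clone 8-4 (0.12), and Nkd1 against WT/mock after quantile normalization (0.0017) or without clone 12-3 (0.015). The cause was not tested.

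A replicate block gave 2, 3 and 6 members and 1365, 973 and 6011 probe sets, the added member being Sp5 on KO/ERRb-wt against KO/mock (adjusted p = 0.0356). The numbers do not pair the samples: same-numbered arrays of different labels correlated from -0.18 to 0.24 in their deviations from group means.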
